A study of Microtus ochrogaster with 23 samples.

Results

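Dkk3 lies on chromosome 8 of the prairie vole assembly MicOch1.0 between 3693538 and 3736531, with its start near 3736531, so that higher positions are upstream. Its methylation was followed over the gene and 5 kb on each side, from 3688538 to 3741531, by taking every cytosine with at least 1 read in any animal. This gave 182 of the 4051749 cytosines of the data set, in 1 of 15041 annotated genes with reads. The gene had been chosen for a promoter difference between “Attacker” and “Parental” voles, so that contrast is given as a description only, including the count of its called cytosines. No other annotated gene overlaps the stretch, and its neighbours are Usp47 on the downstream side and Mical2 on the upstream side.

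Reduced representation bisulfite sequencing (RRBS) reads MspI fragments after bisulfite treatment, and a cytosine's methylation level is given as the percentage of reads in which it was still a C. The dentate gyrus (DG) of the hippocampus was sampled in 23 wild-type adult voles of a laboratory colony, killed right after a test with an unfamiliar pup, with 1 library per animal. Sexually naïve males, housed with a same-sex sibling, formed the groups of 6 “Attacker” animals, which were aggressive to the pup, and 6 “Parental” animals, which cared for it. Pair-bonded animals with a litter formed the groups of 5 males (“Father”) and 6 females (“Mother”). Virgin males were thus grouped by their own behaviour, and “Father” and “Mother” voles differed in sex. The punches hold all cell types of the region, so that a share of cells and a level per cell cannot be told apart. Methylation counts hold no marker RNA with which the tissue label could be checked.

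Wnt ligands signal through frizzled receptors and the co-receptors Lrp5 and Lrp6, and the signal stabilises beta-catenin, which acts with TCF/LEF transcription factors. Dickkopf (DKK) proteins are secreted: Dkk1 binds the co-receptors and, with Kremen proteins, takes them out of play. Dkk3 is the divergent member of the family, and its relation to the co-receptors is less clear. In the adult DG, Wnt signals act on the neural stem cells that give rise to new granule neurons. Methylation of CpG-rich promoters generally goes with low transcription, whereas methylation within gene bodies is common in genes that are transcribed.

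The coverage of Dkk3 was uneven. Between 84 and 117 of the 182 cytosines had reads in an animal, 46 had reads in all 23 animals and 31 in 1 animal only. A total of 57 were well covered, with 10 reads or more in 4 or more animals of every group. Of these, 41 lay in the promoter window, 1 kb on each side of the start, and 6 in the gene body, the rest of the gene. The libraries held 64896224 to 129376223 calls, and the mean level was 4.95% to 6.35% at the 434480 cytosines of the genome that reached 10 reads in all animals. Intervals below are 95% Wilson intervals. They cover counting error alone and not the spread between animals. Several reads can stem from 1 molecule when no molecular identifiers are used, so the intervals can be too narrow even for that.

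Methylation was low around the start and mixed within the gene. The promoter window held 68 cytosines, and 769 of its 1151 values with at least 10 reads, 66.8%, were 0, while 7 were 100%. Over all animals, 12.5% of the promoter reads were methylated, from 4.43% to 21.5% by animal. In the gene body, with 90 cytosines, 38.5% of the reads were methylated, from 20.4% to 58.9% by animal. There 233 of 582 values were 0 and 137, or 23.5%, were 100%. The upstream flank, with 15 cytosines, had 16.8% methylated reads and the downstream flank, with 9, had 18.8%.

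**Figure D1:**
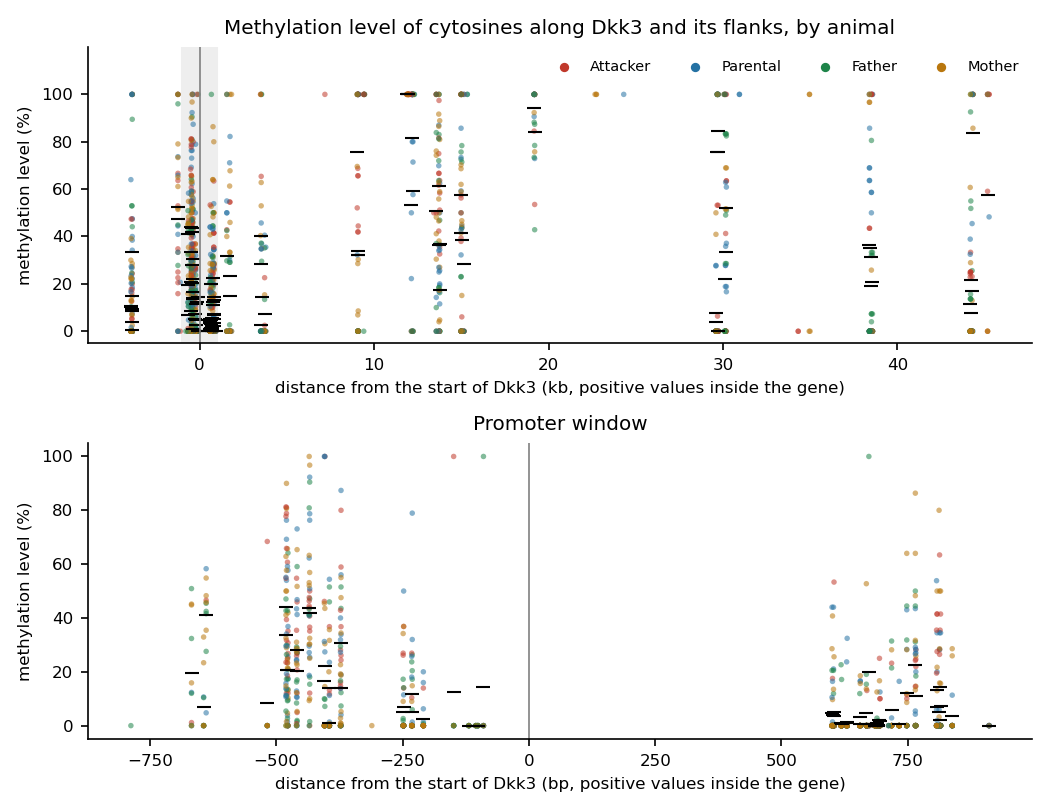
Methylation level (%) of each cytosine with at least 10 reads in an animal against its distance from the start of Dkk3, over the whole gene in kb (top, promoter window shaded) and over the promoter window in bp (bottom). Each point is 1 animal, coloured by group, and black bars are means over at least 4 animals. Most promoter points lie at 0, with a raised stretch 372 to 481 bp upstream, while points inside the gene span 0 to 100%.

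Animals differed more from each other in the gene body than in the promoter. Of 43 gene body cytosines with 10 reads in 4 or more animals, 28 (65.1%) were at 0 in some animal and at 100% in another. In the promoter this held for 6 of 62 cytosines (9.68%). The median SD over animals was 34.5 percentage points in the gene body and 11.8 in the promoter. The spread was not particular to the gene body. In the downstream flank 4 of 6 such cytosines (66.7%) had both extremes, with a median SD of 34.1 points. In the upstream flank 5 of 10 (50%) did, with a median SD of 23.7 points. A few body cytosines were uniform: 3 of them, 11880 to 11955 bp inside the gene, were at 100% in every animal with 10 reads, and 1, 29734 bp inside, was at 0 in every such animal.

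The promoter cytosine behind the choice of the gene was inferred from these counts. It was taken as the one with the largest pooled “Attacker” minus “Parental” difference, with at least 10 reads in each of these groups. This cytosine lies 149 bp upstream of the start. It had reads in 11 of the 23 animals. In “Attacker” 2 it was methylated in 13 of 13 reads and in “Attacker” 4 in 1 of 1 read. It was unmethylated in “Parental” 1 (0 of 17 reads), “Parental” 4 (0 of 15) and “Parental” 6 (0 of 18). The same held for 10, 2, 19 and 23 reads in “Father” 1 to “Father” 4. “Mother” 1 and “Mother” 4 had 0 of 6 and 0 of 12 methylated reads. The groups did not overlap, but the high side is 1 animal with 13 reads and 1 animal with a single read, and the other 4 “Attacker” animals had no reads there.

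Summed over animals, 14 of 14 “Attacker” reads were methylated (100%, interval 78.5% to 100%). The “Parental” reads were 0 of 50 (upper bound 7.13%), the “Father” reads 0 of 54 (6.64%) and the “Mother” reads 0 of 18 (17.6%). Over the 3 groups other than “Attacker” together no read was methylated (upper bound 3.05%). These intervals count reads and not animals, and 13 of the 14 “Attacker” reads came from “Attacker” 2. They are therefore no bounds on the level of a group. The other cytosine of this CpG, on the opposite strand, had no reads, so that the level could not be compared between the strands. Among the alternatives, leaving out “Attacker” 2 ended the call at this cytosine in the comparisons with “Parental” and with “Father” voles.

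The 4 cytosines next to it, 90 to 119 bp upstream, were read in the same animals, except that “Father” 1 had no reads at the one 90 bp upstream. In “Attacker” 2 all 4 were unmethylated in 13 of 13 reads, unlike the cytosine at 149 bp. The single read of “Attacker” 4 was methylated at all 4. Of the other animals, only “Father” 3 had methylated reads at any of them, 19 of 19 reads at the cytosine 90 bp upstream (position 3736621). Full methylation of 1 cytosine in 1 animal was thus seen in both groups on this stretch.

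**Figure D2:**
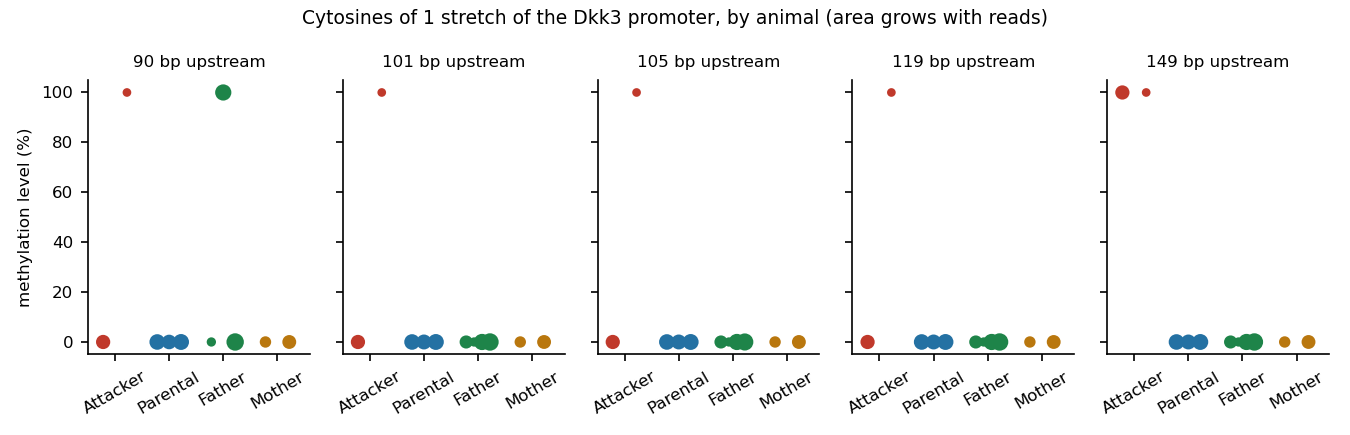
Methylation level (%) by animal and group at the 5 cytosines 90 to 149 bp upstream of the start of Dkk3, with 1 point per animal with reads and an area that grows with its reads. At 149 bp the large “Attacker” point at 100% is “Attacker” 2 with 13 reads, and at 90 bp the large point at 100% is “Father” 3 with 19 reads.

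The 7 promoter values of 100% with at least 10 reads came from 6 cytosines and 7 animals of all 4 groups. Beside those of “Attacker” 2 and “Father” 3, they were “Father” 1 at 673 bp inside the gene (31 reads), “Attacker” 5 (17 reads) and “Parental” 6 (14 reads) at 404 bp upstream, “Parental” 4 at 405 bp upstream (16 reads) and “Mother” 5 at 435 bp upstream (35 reads). At 673 bp inside, none of the 7 other animals with reads had a methylated read. At 435 bp upstream, by contrast, 18 of 21 other animals had some.

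The level of the promoter as a whole was taken as the mean of 11 cytosines that reached 10 reads in all animals. It was 9.38% ± 5.43 (SD, n = 6) in “Attacker” voles, with a lowest value of 3.67%, a median of 8.96% and a highest value of 17.4%. In “Parental” voles it was 11.4% ± 8.92 (SD, n = 6), from 0.981% over a median of 11.9% to 20.3%. The 2 groups overlapped almost completely, and their means differed by -1.97 percentage points (“Attacker” minus “Parental”), the opposite sign to the single cytosine.

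The “Father” voles had promoter levels of 14.1%, 0.834%, 20.1%, 2.83% and 9.37%, with a mean of 9.46% ± 7.97 (SD, n = 5). The “Mother” voles ranged from 4.18% over a median of 12.7% to 17.3%, with a mean of 11.2% ± 5.67 (SD, n = 6). These groups overlapped too, and the difference of -1.76 percentage points (“Father” minus “Mother”) was smaller than either SD (exact permutation test over animals, two-sided, p = 0.658, adjusted over 4 region tests p = 0.853).

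In the gene body no cytosine had 10 reads in every animal. An animal's value was therefore its mean deviation, in percentage points, from the mean over animals at each of 6 well-covered cytosines between 1719 and 14983 bp inside the gene. The “Attacker” voles ranged from -14.2 over a median of 0.484 to 17.8 points. The “Parental” voles ranged from -20.9 over -3.15 to 5.79 points. The “Father” voles had 6.89, -11.1, -19.2, -2.52 and -6.66 points, and the “Mother” voles ranged from -9.73 over 3.80 to 30.9 points. Each group had animals above and below 0, and the 2 highest values were those of “Mother” 2 and “Mother” 3.

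None of the 3 tested body differences passed the exact permutation test over animals. The means were 1.86 ± 11.8 (SD, n = 6) in “Attacker”, -5.31 ± 10.6 (n = 6) in “Parental”, -6.52 ± 9.72 (n = 5) in “Father” and 7.01 ± 17.1 (n = 6) in “Mother” voles. The difference was 8.38 points between “Attacker” and “Father” (exact permutation test, p = 0.229, adjusted p = 0.459) and 1.21 points between “Parental” and “Father” (exact p = 0.853, adjusted p = 0.853). “Father” voles were lower than “Mother” voles by a mean difference of -13.5 points (exact p = 0.152, adjusted p = 0.459), which is more than the “Father” SD and less than the “Mother” SD. With 462 splits of the animals, the smallest p these tests allow is 0.00433. “Attacker” and “Parental” voles differed by 7.18 points, given without a test. The comparisons share the “Father” animals. Each p sets the observed difference of means against those of all splits of the animals sampled.

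**Figure D3:**
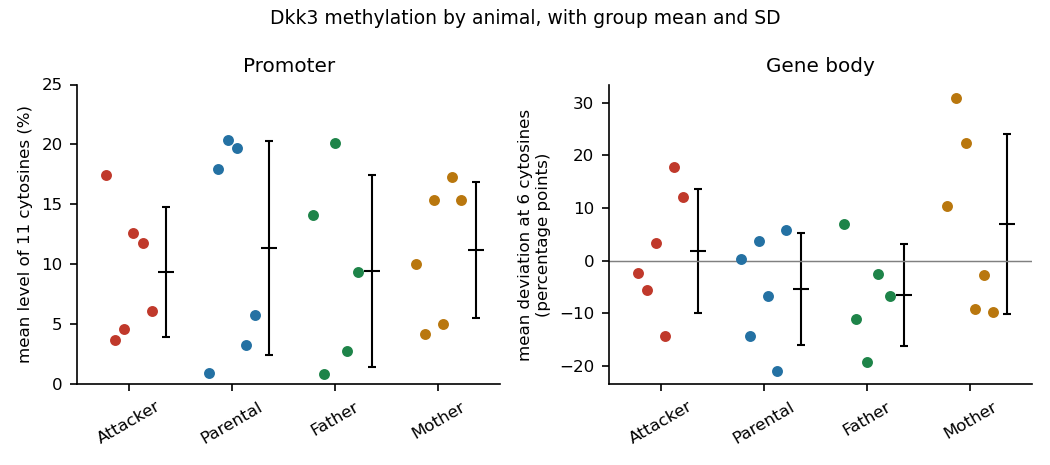
Mean methylation level (%) of 11 promoter cytosines (left) and mean deviation in percentage points at 6 gene body cytosines (right), by animal and group, with the group mean and SD in black. The 4 groups overlap in both panels, and the 2 highest body values, 30.9 and 22.4, are “Mother” animals.

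The 2 body cytosines with at least 10 reads in the most animals, 21 and 20, show how wide the spread was. At position 3722825, 13706 bp inside the gene, the level was 65.4% ± 15.03 (SD, n = 5) in “Attacker”, 43.6% ± 34.8 (n = 5) in “Parental”, 58.8% ± 27.9 (n = 4) in “Father” and 73.9% ± 21.7 (n = 6) in “Mother” voles. At position 3722771, 13760 bp inside, it was 48.3% ± 13.7 (n = 5), 30.7% ± 19.7 (n = 5), 19.96% ± 21.3 (n = 5) and 46.3% ± 35.0 (n = 6) in the same order. At the second of these, “Mother” voles lay between 4.76% and 88.9%. “Father” voles had 0%, 0%, 16.3%, 46.9% and 36.7% there, so that both groups held low and middle values.

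Well-covered cytosines no more than 100 bp apart were joined into stretches, and 4 stretches had at least 4 cytosines. Just inside the gene, the 24 cytosines 600 to 838 bp from the start had a mean level of 4.84% ± 3.54 (SD over 23 animals). The 5 cytosines 209 to 249 bp upstream had 5.89% ± 6.89. The 12 cytosines 372 to 481 bp upstream, from position 3736903 to 3737012, stood at 25.6% ± 10.99. The promoter window was thus not uniform, with a raised stretch upstream of both low ones.

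The raised stretch was higher than its neighbour 209 to 249 bp upstream in 22 of 23 animals, by 19.7 ± 10.2 (SD) percentage points, with “Attacker” 4 as the exception. It was higher than the stretch inside the gene in 22 of 23 animals as well, by 20.8 ± 11.8 points, with “Father” 4 as the exception. Further out, the 7 cytosines 3862 to 3924 bp upstream had 11.6% ± 12.2, which was lower than the raised stretch in 20 of 23 animals.

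In the raised stretch “Attacker” voles ranged from 14.4% over a median of 29.6% to 41.0%, and “Parental” voles from 13.2% over 29.2% to 38.0%. The “Father” voles had 16.8%, 15.5%, 38.0%, 5.53% and 20.1%, and the “Mother” voles ranged from 17.4% over 24.4% to 48.8%. The ranges of all 4 groups overlapped, with the lowest value in “Father” 4 and the highest in “Mother” 5. The means were 28.0% ± 11.3, 27.7% ± 10.2, 19.2% ± 11.8 and 26.5% ± 11.6 (SD) in the order of groups above.

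**Figure D4:**
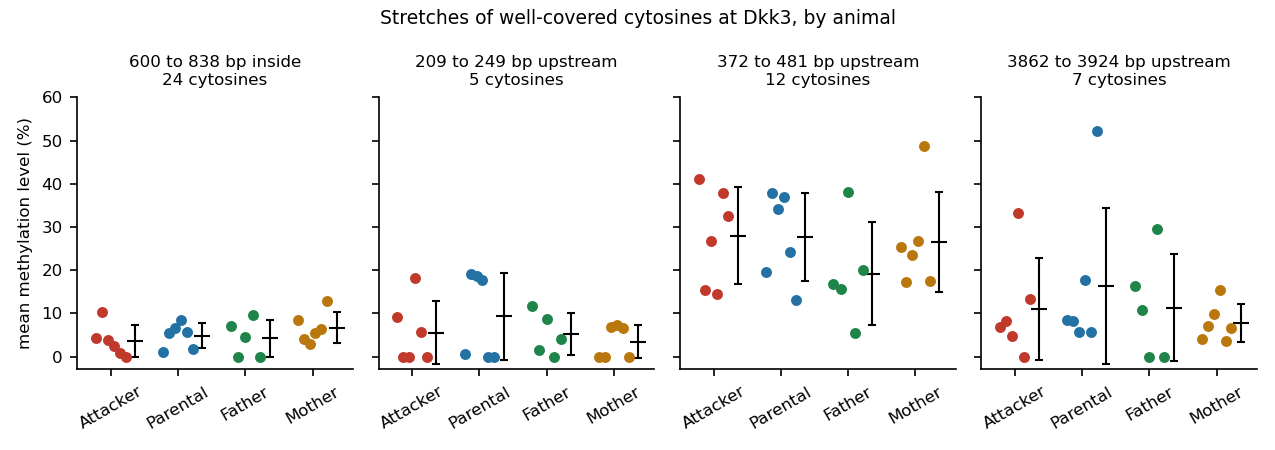
Mean methylation level (%) by animal and group over 4 stretches of well-covered cytosines at Dkk3, with the group mean and SD in black. The stretch 372 to 481 bp upstream lies at 25.6% on average against 4.84% and 5.89% in the stretches on either side of the start, and single animals stand out at 48.8% there and at 52.2% in the stretch 3862 to 3924 bp upstream.

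The 3 promoter cytosines of highest mean level all belong to the raised stretch. They lie at positions 3737011 (44.0% ± 27.3, SD over 22 animals with 10 reads), 3736966 (43.8% ± 22.8 over 20 animals) and 3736965 (41.9% ± 29.5 over 22 animals). At 3737011, 480 bp upstream, the “Father” voles had a mean of 19.6% ± 8.16 and a highest value of 29.9%. The other groups had means of 51.5% ± 28.0 in “Attacker”, 50.6% ± 23.8 in “Parental” and 51.5% ± 32.8 in “Mother” voles. Their lowest values of 12.1%, 19.3% and 1.52% lay within the “Father” range or below it, so the groups overlapped, and with all animals this cytosine was not called in any comparison by the genome-wide test described below. Without “Parental” 6 it was called between “Parental” and “Father” voles (fitted difference 40.4 points).

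At 3736965, 434 bp upstream, “Parental” voles ranged from 25.4% to 92.3%, “Attacker” voles from 0% to 50%, “Father” voles from 1.49% to 90.5% and “Mother” voles from 10% to 96.8%. Its partner on the other strand, 3736966, ranged from 0% to 100% over animals, with the 4 covered “Attacker” voles close together between 43.8% and 47.6%. Both cytosines of this CpG were thus partly methylated in most animals of each group.

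Among the same 11 cytosines, the 5 with the largest SD over animals were those 372 bp upstream (30.5% ± 26.1), 765 bp inside (22.5% ± 24.5), 395 bp upstream (13.8% ± 19.01), 748 bp inside (12.3% ± 18.5) and 248 bp upstream (7.09% ± 14.4). At 372 bp upstream, position 3736903, “Attacker” voles ranged from 0% over 31.4% to 80%, “Parental” voles from 0% over 26.4% to 87.4%, and “Mother” voles from 0.746% over 26.6% to 55%. The “Father” voles ranged from 0% over 12.3% to 51.5%. The spread within each group there was of the size of the level itself.

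At 765 bp inside, position 3735766, the level was 0 in 4 of 6 “Attacker”, 1 of 6 “Parental”, 2 of 5 “Father” and 1 of 6 “Mother” voles. The means were 6.46% ± 10.5, 18.2% ± 17.4, 25.1% ± 23.9 and 40.6% ± 32.2 (SD) in that order, and the highest values 24.2%, 43.5%, 50% and 86.4%. All groups reached down to 0 and so overlapped. The cytosine 17 bp away at position 3735783 had lower means, 3.58% ± 5.56, 11.9% ± 19.01, 15.3% ± 21.4 and 18.8% ± 24.5 (SD), in the same order of groups.

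The levels of both strands could be set side by side at 31 CpGs with 10 reads on each strand in the same animal, of which 9 had them in at least 20 animals. In 7 of these 9 the mean difference was within 5 percentage points, the lowest being -3.45. The other 2 belong to the raised stretch. At 372 and 373 bp upstream the first cytosine had 30.5% ± 26.1 and the second 13.9% ± 14.2, with the first higher in 16 of 23 animals and the second in 6. At 395 and 396 bp upstream the first cytosine was methylated in 12 of 23 animals (322 of 2294 reads) and the second in 1 of 23 (5 of 1264 reads). At the other 4 CpGs of the raised stretch, 434, 459, 477 and 480 bp upstream, 18 or 19 animals had reads enough on both strands. The first cytosine minus the second gave 1.96 ± 39.6, 7.24 ± 27.0, 2.58 ± 24.8 and 11.6 ± 33.96 (SD) percentage points there. At 372 and 395 bp upstream it gave 16.6 ± 25.1 and 12.9 ± 18.6 points. At all 6 CpGs the mean difference between the strands was smaller than its SD over animals, which describes the spread and does not test the mean. At 395 bp upstream the first cytosine was higher in 12 animals and the second in 0, and both were equal in 11. Mean differences of this size were not confined to the raised stretch. At 766 bp inside the gene the first minus the second gave -14.6 ± 29.3 (SD, 19 animals) points. There the second was higher in 12 animals and the first in 5. At 3862 bp upstream it gave 16.8 ± 47.9 points (17 animals).

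Single cytosines were then compared with a re-implementation of the beta-binomial Wald test of DSS, the package used in the study, fitted to 2 groups at a time at every cytosine of the genome with reads in both. A cytosine was called where a difference over 15 percentage points had a score under 0.05, without adjustment for multiple testing. Between “Attacker” and “Parental” voles, the contrast behind the choice of the gene, 2 cytosines of Dkk3 were called, which is 1.52% of those tested in the stretch, against 0.746% over the genome. Between “Attacker” and “Father” voles 3 were called (2.24%, background 0.919%), between “Parental” and “Father” voles 1 (0.769%, background 1.14%), and between “Father” and “Mother” voles 4 (3.17%, background 1.13%). These are a handful of cytosines in each comparison, and whether their share differs from the background was not tested. The cytosine 149 bp upstream is 1 of the 2 and also 1 of the 3 called between “Attacker” and “Father” voles, so that the “Attacker” values behind the choice of the gene enter both counts. The comparisons share animals, and the same cytosine of 1 “Father” animal enters 3 of them.

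The methods of the study state a threshold on the Wald p itself beside one on the difference. By a Wald p under 0.05 with a difference over 15 points, 3, 3, 2 and 4 cytosines of Dkk3 were called in the order above, and 0.926%, 1.14%, 1.4% and 1.4% of all tested cytosines.

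No called cytosine was well covered. At cytosines with 10 reads in 4 or more animals of both compared groups, the Wald test called 0 of 63 (“Attacker” against “Father”), 0 of 73 (“Parental” against “Father”) and 0 of 67 (“Father” against “Mother”). The backgrounds were 0.0433%, 0.0424% and 0.0554%. An unadjusted Wald p under 0.05 was reached by 0, 1 and 0 of them, and an unadjusted p under 0.05 by 7, 4 and 6 in an arcsine-link model. For these unadjusted counts no share over all well-covered cytosines was obtained, so they cannot be set against a background. Calls of that model used another rule, an adjusted p under 0.05 with a pooled difference above the same minimum as the Wald calls. By this rule it called 0 in each comparison, and its share over the genome was not obtained. Wald and arcsine-link calls thus rest on unlike thresholds.

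The largest difference between “Father” and “Mother” voles lay deep inside the gene, at positions 3698130 and 3698146, 38401 and 38385 bp from the start. At both, the 5 “Father” voles had 0 methylated reads of 20, 26, 34, 6 and 9. “Mother” 2 had 29 of 30 and “Mother” 4 had 11 of 11 methylated reads, and the other 4 “Mother” voles had no reads there. The groups did not overlap. The fitted difference was -88.1 ± 13.2 (SE) percentage points. After Benjamini-Hochberg adjustment over all cytosines the Wald test gave p = 1.07e-06, while the exact permutation test over the 7 animals with reads gave p = 0.0952, the smallest p that 21 splits allow. Over the genome, 0.0516% of the tested cytosines were called and passed that adjustment.

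The adjusted Wald p rests on few animals. Without “Mother” 2 it rose to 0.809, while without any other single animal it was at most 0.00666. The virgin males were mixed at the same cytosines. “Attacker” 1 and 3 had 0% and “Attacker” 4 had 43.5% at both. “Parental” 1 had 69.0% and “Parental” 2 had 63.6% at both, “Parental” 4 had 85.7% and 100%, and “Parental” 5 and 6 had 0%. The cytosines are 16 bp apart, had the same number of reads in each animal, and differed in level only in “Parental” 4, so they count as 1 observation. Low and high animals thus occurred in both virgin groups.

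At position 3721382, 15149 bp inside, values were all or none. “Father” 2 and “Father” 5 had 0 of 15 and 0 of 7 methylated reads, whereas “Mother” 2 had 7 of 7 and “Mother” 5 had 6 of 6. The difference was called, with a fitted value of -79.4 ± 23.6 (SE) points, but it did not pass the adjusted threshold (Wald test, adjusted p = 0.565), and 6 splits of these 4 animals allow no exact p under 0.333. Among virgin males, “Attacker” 5 (14 of 14 reads) and “Parental” 5 (17 of 17) were fully methylated, and “Attacker” 1, 4 and 6 and “Parental” 4 had none in 15, 18, 16 and 17 reads.

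At position 3727466, 9065 bp inside, all 6 “Attacker” voles had reads. Their levels were 0%, 41.9%, 100%, 68.8%, 65.6% and 100%, on 62, 31, 10, 32, 32 and 10 reads. The “Father” voles 1, 4 and 5 had 0 methylated reads of 21, 10 and 45. “Attacker” 1, at 0% on the most reads, overlapped with the “Father” voles. The fitted difference was 54.1 ± 23.4 (SE) points, with an adjusted p of 1 in the Wald test and an exact permutation p = 0.0952. The call was lost without any of 6 animals, “Attacker” 3, 4, 5 or 6 or “Father” 1 or 5.

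The other groups at this cytosine ran from 0 to high values as well. “Parental” 1 had 16 of 16 methylated reads and “Parental” 3 and 4 had 0 of 13 and 0 of 62. The “Mother” voles 1, 2, 3, 5 and 6 had 0%, 50%, 28.6%, 6.90% and 0%. Of the 4 groups, only the “Father” voles with reads were uniform, and there were 3 of them.

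The remaining 2 called cytosines turn on 1 animal each. At position 3735858, 673 bp inside the gene and within the promoter window, “Father” 1 was the only “Father” animal with reads (31 of 31 methylated), and this cytosine was called against all 3 other groups, which had 0 of 35 (“Attacker”), 0 of 29 (“Parental”) and 0 of 27 (“Mother”) methylated reads. At position 3733037, 3494 bp inside, “Attacker” 3 was the only “Attacker” animal with reads (15 of 15 methylated), against 0 of 17 in “Parental” 1 and 0 of 51 in “Parental” 6. “Father” 1 had 0 of 16 there, “Father” 2 had 8 of 8, “Mother” 2 had 17 of 17 and “Mother” 4 had 21 of 52. Values of 0 and of 100% were thus found within the “Father” group.

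**Figure D5:**
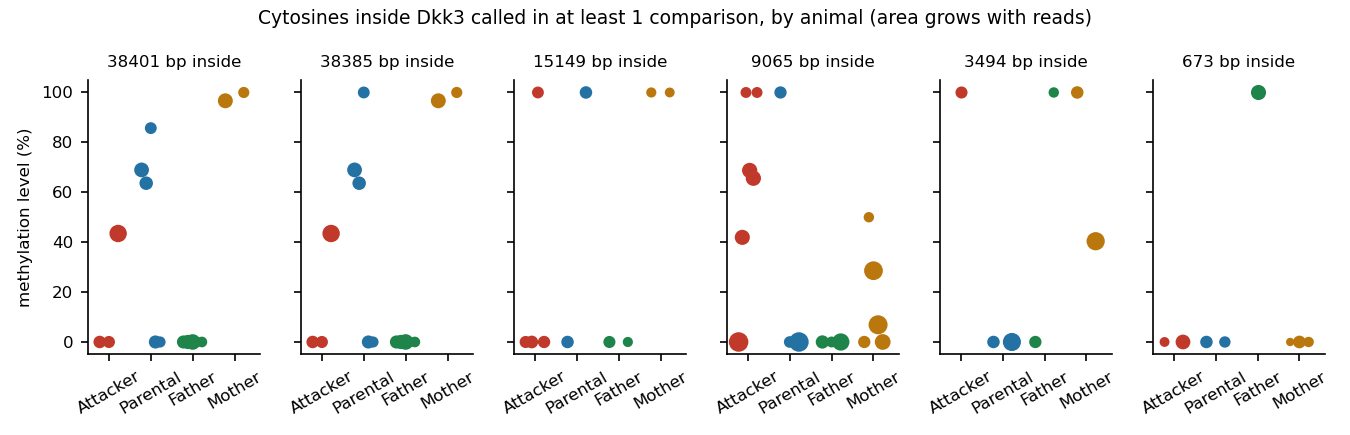
Methylation level (%) by animal and group at 6 cytosines inside Dkk3 that were called in at least 1 comparison, titled by their distance from the start, with 1 point per animal with reads and an area that grows with its reads. At 38401 and 38385 bp the 5 “Father” voles are at 0 and both “Mother” voles with reads are at 96.7% or 100%, and at 673 bp a single “Father” animal is at 100%.

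Over the annotated gene alone, Dkk3 had 3 of the cytosines that reached 10 reads in all animals, all within the first kb, with a mean level of 11.8% ± 12.6 (SD over 23 animals). Among 341 genes with as many such cytosines, 57.2% had a lower mean level and 80.6% a smaller SD over animals. The median gene of these had a level of 6.32% and an SD of 6.30 points. Dkk3 was thus near the middle of these genes in level and in the upper part in spread.

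The genes whose level over the 23 animals was most like that of Dkk3, among 4094 genes with at least 20 such cytosines, were Gas7 (Pearson r = 0.83), Map3k8 (r = 0.739) and Bmpr1b (r = 0.615). Gas7 encodes a growth arrest protein of neurons, Map3k8 a kinase of inflammatory signalling and Bmpr1b a receptor of bone morphogenetic proteins. Their levels were low, at 1.07% ± 0.893, 0.842% ± 1.14 and 0.899% ± 0.568 (SD). These are the highest of 4094 coefficients, and the Dkk3 side rests on 3 cytosines, so they are given as a description only.

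The other genes of the Wnt pathway were taken from a list of 72, of which 69 were in the annotation and 44 had 1 or more cytosines with 10 reads in all animals. Of these 44, 38 had a lower mean level than Dkk3 and all 44 a smaller SD over animals. The median was 2.46% for the level and 1.20 points for the SD. Every one of these levels averages over more cytosines than the 3 of Dkk3, which lowers an SD by itself. The mean level of Dkk3 rests on these 3 as well, which lie 733 to 765 bp inside the gene. The 24 well-covered cytosines of the stretch they belong to had a mean of 4.84%.

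Within the DKK family, Dkk2 had the highest level, 45.9% ± 11.97 (SD over animals, 6 cytosines), with 54.9% ± 18.5 in “Attacker”, 39.7% ± 8.45 in “Parental”, 47.8% ± 4.43 in “Father” and 41.5% ± 5.73 in “Mother” voles. Kremen2, a receptor for DKK proteins, had 15.8% ± 4.06 over 19 cytosines. Dkk1, Dkk4 and Lrp5 had reads but no cytosine that reached 10 reads in all animals, and Dkkl1 and Lrp6 were tested at no cytosine.

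The other secreted inhibitors ran from 0.403% in Sostdc1, a BMP and Wnt antagonist, to 15.9% in Draxin, an axon guidance protein that binds Lrp6. The ligands ran from 0.758% in Wnt16 to 10.9% in Wnt5a, which is known for signalling without beta-catenin. The frizzled receptors were low throughout, from 0.351% in Fzd3 to 4.19% in Fzd5. Wls, which carries ligands to the cell surface, stood at 0.295%, and the R-spondin receptors and ligands ran from 1.33% in Rspo3 to 13.03% in Lgr6. Among the intracellular components the range was 0.312% in Gsk3a to 3.23% in Gsk3b, both kinases of the beta-catenin destruction complex. Among the transcription factors it was 2.45% in Lef1 to 8.07% in Tcf7l2.

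Of the cytosines in these genes, 42 of 8120 (0.517%) were called between “Attacker” and “Parental”, 47 of 8018 (0.586%) between “Attacker” and “Father”, 63 of 7929 (0.795%) between “Parental” and “Father” and 62 of 7969 (0.778%) between “Father” and “Mother” voles. All of these shares were below the backgrounds of 0.746%, 0.919%, 1.14% and 1.13%, which were not matched for coverage. Between “Attacker” and “Parental” voles, 4597 of the 8120 were well covered, against 1266207 of 2758337 over the genome. Well-covered cytosines were rarely called (0.0433% over the genome between “Attacker” and “Father” voles). Whether coverage accounts for the lower shares was not tested. The median of the gene medians was 0.63, 0.239, -0.417 and 0.265 percentage points, against 0.694, 0.236, -0.424 and 0.287 over all tested cytosines. At well-covered cytosines of the list, 0 of 4597, 0 of 4451, 0 of 4518 and 0 of 4445 passed an adjusted Wald p under 0.05 with a difference over 15 points, and 0.000237%, 0.000604%, 0.000505% and 0.000761% of all well-covered cytosines did. An unadjusted Wald p under 0.05 was reached by 4, 4, 4 and 8 of the list. The arcsine-link model, by its adjusted p under 0.05 with a pooled difference over 15 points, called 2, 4, 8 and 7. Shares over all well-covered cytosines were not obtained for these last counts, so they cannot be set against a background.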

How the data were processed

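The authors made RRBS libraries from the DNA of single animals, trimmed the reads with Trim Galore, aligned them with Bismark to MicOch1.0 and deposited, per animal and CpG cytosine, unnormalized counts of all reads and of methylated ones. The counts were used as deposited, both strands apart. Gene spans came from a RefSeq table of MicOch1.0 without strand or exons, and the start of Dkk3 from the definition of the gene given for this work. Members, lists and named cytosines were chosen with earlier results of these data known.

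Regions were compared over animals by exact permutation (two-sided, the smaller tail doubled), with Benjamini-Hochberg adjustment over 4 tests. The planned body level, over cytosines with 10 reads in every animal, could not be formed, and the deviation was chosen after the coverage was seen, as was the exact test at called cytosines. Single cytosines were tested with a re-implementation of the DSS Wald test, without smoothing (pseudocount 0.5 methylated of 1 read, dispersion shrunk to a log-normal prior), tested on simulated data. Named were the cytosine chosen for the gene, the 3 highest promoter means, the 5 largest SDs and called cytosines, up to 6 per comparison, and, of the Wnt list, the DKK family, its receptors and the extremes of each role.

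Alternatives were the read minimum, pooled reads, summed strands, other windows, other criteria, an arcsine-link model (with the replicate number or without it) and each animal left out. Fits used numba 0.67.0, numpy 2.4.6 and scipy 1.17.1, tables pandas 2.3.3 and plots matplotlib 3.10.9, under Python 3.11.15. Sequences are not printed, since no genome was at hand.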

Additional observations from a re-analysis of the deposited data

Results flagged for a closer look

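In the groups of 5 or 6 animals, the highest and lowest values were compared with the nearest other value as a share of the group's range, for the promoter level, the body deviation, the 4 stretches and the calls per library. Chance flags about 1 in 20 groups, and 2 of 28 stood apart. In the stretch 372 to 481 bp upstream, “Mother” 5 had 48.8%, with the next “Mother” animal at 26.8% (gap 0.700 of the range). In the stretch 3862 to 3924 bp upstream, “Parental” 6 had 52.2%, with the next “Parental” animal at 17.7% (gap 0.742 of the range). Neither animal was the highest of its group in the other stretch, where “Mother” 5 had 3.50% and “Parental” 6 had 13.2%.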

How the results depend on the processing

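Called cytosines depended on coverage. In the order of the comparisons in the report, the main counts were 2, 3, 1 and 4. They fell to 0 in each with 10 reads in 4 animals per group, to 0, 1, 0 and 0 with 5 reads in 3 animals per group, and to 0, 0, 0 and 2 with an adjusted p under 0.05. The Wald p with a difference over 15 points gave 3, 3, 2 and 4. With 1 animal left out the counts ran from 2 to 4, 1 to 3, 1 to 2 and 3 to 4. They moved most without “Parental” 1 (4 between “Attacker” and “Parental”), without “Father” 1 (1 between “Attacker” and “Father”), and without “Parental” 4, 5 or 6 or “Father” 5 (2 between “Parental” and “Father”). In that comparison “Parental” 4, 5 and 6, each left out, added the cytosines 15149 and 38401 bp inside and 480 bp upstream, and “Father” 1 the one 3494 bp inside.

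Deviations of same-numbered animals correlated between -0.0193 and 0.0521, with at most 2 of 6 closest to their own number. The labels do not say whether a replicate number marks mates or a shared batch. These correlations cannot decide it, since such a link need not show in methylation. The arcsine-link model, by its adjusted p and pooled difference, called 0, 0, 0 and 0 without the replicate number. With that number as a block the model called 0, 1, 1 and 0, at 808 bp inside and 480 bp upstream. Shares called over the genome were not obtained for this model, so its counts have no background. For the region levels the block meant 5 pairs of same-numbered animals, with replicate 6 left out. The body differences were then 6.32 (“Attacker” minus “Father”), -1.01 (“Parental” minus “Father”, turned) and -16.9 points (“Father” minus “Mother”). The promoter difference was -0.928 (“Father” minus “Mother”). They were tested by flipping the signs of the pair differences. With 5 pairs no exact p under 0.05 can arise, so none of these tests could pass the threshold.

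“Parental” minus “Father” in the body also turned at 5 reads (-3.10) and, leaving out 1 animal, ran from -1.97 to 4.56 points, turning without “Parental” 3 or 6 or “Father” 3. “Father” minus “Mother” in the promoter turned at 20 reads (2.06) and ran from -4.43 to 0.393 with an animal left out, turning without “Father” 2. In the body this difference passed an unadjusted exact permutation p with strands summed (-16.6 points, p = 0.0433) and with the promoter window included (-5.19 points, p = 0.039), and ran from -16.9 to -8.75 with an animal left out. Over its other alternatives it lay between -26.4 (1 cytosine with 5 reads in all animals) and -5.19. “Attacker” minus “Father” kept its sign under every alternative run, from 5.19 to 11.7 with an animal left out, but fell to 1.98 at 5 reads, 3.94 with the promoter window and 4.94 with pooled reads, and reached 20.3 at the 1 cytosine. The untested “Attacker” minus “Parental” difference in the body ran from 3.99 to 10.4 with an animal left out, fell to 0.465 with the promoter window and turned with pooled reads (-0.859). In the promoter it ran from -4.05 to -0.174 and turned in a window from the start to 2 kb upstream (0.133). The causes were not tested. At 20 reads no body value could be formed. Depth limits the body most, where 6 of 90 cytosines were well covered.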
